A study of Mus musculus with 3 samples.

Results

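Sfrp2-high resting fibroblasts are mesenchymal cells of the fetal mouse thymus with many transcripts of *Sfrp2*, which encodes a secreted Wnt-binding protein, and few transcripts of cell division genes. They were chosen by counts of unique molecular identifiers (UMIs), each standing for 1 captured RNA molecule. Barcodes were kept with at least 200 genes, at least 2000 UMIs, under 20% mitochondrial UMIs and under 5% UMIs of the Hba- and Hbb- genes. A kept cell was a member when it had a UMI of *Pdgfra*, none of *Epcam* or *Ptprc*, and at least 5 of *Sfrp2*, which also had to exceed the sum of *Aldh1a2*, *Kcnj8* and *Abcc9*. It also had UMIs of fewer than 4 of the division genes *Top2a*, *Mki67*, *Cenpf*, *Birc5* and *Tpx2*, and fewer than 4 of the contractile genes *Rgs5*, *Acta2*, *Tagln*, *Actg2*, *Myl9* and *Tpm2* at 2 UMIs or more. The rule found 1547 members among 16365 kept cells, of 24616 barcodes in all. These 18 genes chose the cells, so their values describe the choice only.

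The thymus arises from endoderm of the pharyngeal pouches, and mesenchyme that comes largely from the neural crest surrounds it and later forms its capsule and septa. Mesenchymal fibroblasts lay down collagens and proteoglycans, and they secrete growth factors and make retinoic acid that act on the thymic epithelium. Secreted frizzled-related proteins such as the product of *Sfrp2* bind Wnt ligands outside the cell and adjust how strongly neighbouring cells respond to them.

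Thymic lobes taken from C57BL/6 embryos at E13 to 13.5 were digested with trypsin, and 1 droplet library of 3′ ends was made per genotype. The control embryos were wild type (Tbx1+/+). The label Tbx1 neo2/neo2 stands for a neomycin cassette within *Tbx1*, which encodes a pharyngeal T-box transcription factor, and Foxn11089/1089 for a small deletion in *Foxn1*, the transcription factor gene of thymic epithelium. The labels do not give the number or sex of the embryos in a library. In the order control, Tbx1 neo2/neo2, Foxn11089/1089, which holds wherever 3 values are given, the libraries held 6410, 5759 and 12447 barcodes with 82936619, 137498422 and 204655055 UMIs. Kept cells numbered 4962, 3579 and 7824, and members 274, 550 and 723.

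The libraries stood apart in ways that bear on every comparison of the members. Their depth differed, and the median member had 8778, 22610 and 12118 UMIs and 2779, 5145 and 3565 genes, with 3.0%, 6.77% and 6.09% mitochondrial UMIs. *Tbx1* (ENSMUSG00000009097, GRCm38 chromosome 16, 18580979 to 18590671) had 1.47, 5.04 and 6.37 counts per 1000000 UMIs (CPM) over all kept cells. The library whose label names the *Tbx1* mutation therefore did not have less *Tbx1* than the control, its genotype could not be checked by counts, and it is named the library labelled Tbx1 neo2/neo2 or, in short, the labelled library. In members alone *Tbx1* had 13.1 (8.95 to 18.5), 9.95 (8.30 to 11.8) and 6.79 (5.21 to 8.70) CPM, with intervals that overlap for the control and the labelled library. The log2 ratio for the labelled library was -0.39 (-0.96 to 0.21), an interval that includes no difference, and -0.73 (-1.30 to -0.12) less the median over all genes. *Foxn1* (ENSMUSG00000002057, chromosome 11, 78357577 to 78386558) had 40.3, 36.9 and 90.8 CPM over all kept cells and 0.409, 0.627 and 1.53 CPM in members, and counts of 3′ ends cannot check a small deletion. The sex-linked genes differed too, and *Xist* stood at 114, 111 and 478 CPM in members and 4 genes of the Y chromosome (*Uty*, *Kdm5d*, *Ddx3y* and *Eif2s3y*) at 62.9, 170 and 123 CPM. At least 2 Y-linked UMIs and no *Xist* UMI were seen in 13.9%, 74.7% and 37.8% of members, and at least 2 *Xist* UMIs with no Y-linked UMI in 27.7%, 8.73% and 41.2%, so each library held members of both kinds in different proportions. Some transcripts set the control apart in every cell class examined, and *Gm42418*, a locus that overlaps ribosomal RNA, had 13727, 294 and 285 CPM in members and 5668, 174 and 158 CPM in epithelial cells. The libraries shared 17 (control and labelled Tbx1 neo2/neo2), 18 (control and Foxn11089/1089) and 28 barcodes, none of which was a member in both libraries of its pair.

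Members made up 28.5% of the 963 *Pdgfra* cells of the control (25.6 to 31.4%), 38.5% of the 1428 of the labelled library, over all kept cells not lower in *Tbx1* (36.0 to 41.1%), and 29.6% of the 2444 of the Foxn11089/1089 library (27.8 to 31.4%). With 1 library per genotype there were no replicates and no test was run. The 95% intervals in brackets are exact (Clopper-Pearson for shares, Poisson for sums, conditional binomial for ratios) and cover counting error only. The share was 1.35 times that of the control in the labelled library (1.17 to 1.57) and 1.04 times in the Foxn11089/1089 library (0.904 to 1.20). The minimum of 5 *Sfrp2* UMIs is easier to reach in a deep cell, and with a minimum of 3 per 10000 UMIs in its place the first ratio was 1.06 (0.920 to 1.22), an interval that includes no difference. Cells were also thinned at random to 5000 UMIs and then chosen by the rule, which left 163, 316 and 398 members. In these the first ratio was 1.30 (1.07 to 1.58). The 2 intervals overlap, and 5 of 5000 UMIs is a stricter minimum than 3 of 10000. Without evening out depth, the ratio was 1.25 with a minimum of 3 UMIs and 1.61 with 10. The 2 forms thus do not settle whether the share differs at even depth. Of all kept cells, members were 5.52% (4.90 to 6.19%), 15.4% (14.2 to 16.6%) and 9.24% (8.61 to 9.90%). The other *Pdgfra* cells were cycling (194, 326 and 641), contractile (25, 174 and 67), on the *Aldh1a2* side, with the sum of *Aldh1a2*, *Kcnj8* and *Abcc9* at 5 or more and at least equal to *Sfrp2* (160, 124 and 356), or none of these (the remaining cells, 310, 254 and 657).

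**Figure D1:**
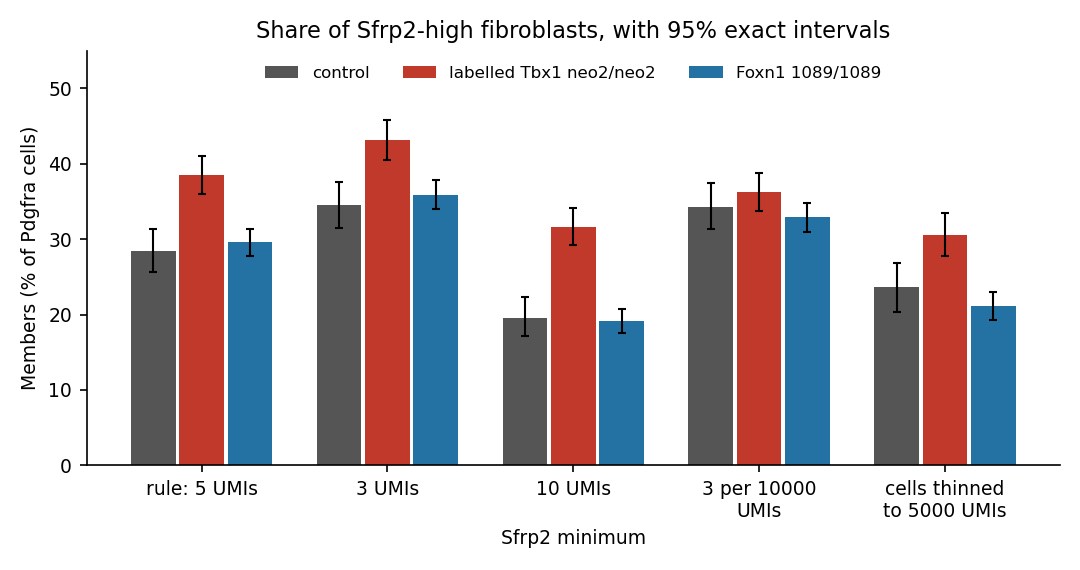
Members as a percentage of *Pdgfra* cells (vertical axis) in each library under the rule and 4 other forms of the *Sfrp2* minimum, with exact 95% intervals for counting error as bars. Under the rule the share is 28.5% in the control, 38.5% in the labelled library (*Tbx1* not lower over all its cells) and 29.6% in the Foxn11089/1089 library, and with 3 per 10000 UMIs the first 2 are 34.3% and 36.3%.

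High *Sfrp2* was not a property of resting cells alone. Of the 322, 893 and 970 *Pdgfra* cells with at least 5 *Sfrp2* UMIs, 85.1%, 61.6% and 74.5% were members, and the rule set 30, 162 and 164 aside as cycling and 14, 159 and 49 as contractile. *Sfrp2* (ENSMUSG00000027996, GRCm38 chromosome 3, 83766321 to 83774316) had a median of 14, 22 and 13 UMIs per member and a level of 2116, 1507 and 1393 CPM, against 1436, 2007 and 1123 CPM in contractile and 241, 582 and 283 CPM in cycling *Pdgfra* cells. Contractile cells of the labelled library thus held more *Sfrp2* per UMI than its members did. Just inside the limit, at 5 *Sfrp2* UMIs, 17, 24 and 68 members had 1311, 945 and 1110 CPM of *Igf1*, 63.0, 214 and 24.9 CPM of *Ogn*, 1374, 1909 and 1119 CPM of *Dcn* and 315, 404 and 410 CPM of *Crabp1*. Just outside it, 23, 30 and 88 otherwise eligible cells with 4 *Sfrp2* UMIs had 1104, 582 and 1177 CPM of *Igf1*, 61.0, 284 and 37.2 CPM of *Ogn*, 1424, 1291 and 1504 CPM of *Dcn* and 458, 191 and 385 CPM of *Crabp1*. In the labelled library *Igf1*, *Dcn* and *Crabp1* were thus lower just outside the limit and *Ogn* higher, while in the control *Dcn* and *Crabp1* were higher just outside it.

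The marker genes that the rule did not use were detected in the members well above background. *Igf1* (ENSMUSG00000020053, GRCm38 chromosome 10, 87858265 to 87937042), which encodes a growth factor, had 1440, 901 and 1216 CPM in members and 518, 256 and 660 CPM in the other *Pdgfra* cells. *Ogn* (ENSMUSG00000021390, GRCm38 chromosome 13, 49608046 to 49624501), for the small leucine-rich proteoglycan osteoglycin, had 84.6, 230 and 92.1 CPM against 9.93, 87.1 and 18.7 CPM. *Crabp1* (ENSMUSG00000032291, GRCm38 chromosome 9, 54764748 to 54773110), for a cytoplasmic retinoic acid-binding protein, had 349, 476 and 350 CPM against 141, 180 and 158 CPM, and the collagen-binding proteoglycan gene *Dcn* 1173, 1633 and 1073 CPM against 564, 466 and 815 CPM. Each of these 4 genes was higher in members than in the other *Pdgfra* cells of all 3 libraries, and *Ogn* was highest in the labelled library, in members as in its contractile and remaining cells (125 and 165 CPM). After every chosen member was thinned in the same way without being chosen again, which left out 10, 1 and 11 shallower members, *Igf1* was found in 94.7, 79.8 and 92.0% of members, *Dcn* in 79.2, 83.1 and 75.7%, *Crabp1* in 55.3, 51.4 and 54.9% and *Ogn* in 28.4, 50.1 and 24.9%. The remaining *Pdgfra* cells had them too, *Igf1* in 71.2, 43.9 and 90.3%, *Dcn* in 75.8, 33.3 and 83.4%, *Crabp1* in 37.4, 48.1 and 42.0% and *Ogn* in 3.91, 43.9 and 8.31%, and cycling cells had *Dcn* in 59.8, 53.3 and 79.6%, so in the Foxn11089/1089 library *Dcn* was found more often outside the members than in them. Without thinning the shares in members were 94.9, 90.5 and 96.0%, 86.9, 91.1 and 84.0%, 65.3, 70.7 and 70.4% and 39.4, 77.3 and 39.3%, in the same order of genes. Red blood cell barcodes, which should lack these transcripts, had a median of 8794, 18670 and 12534 UMIs and thinned shares of 0, 1.16 and 2.01% for *Igf1*, 1.49, 1.16 and 2.72% for *Dcn*, 0.743, 1.74 and 1.81% for *Crabp1* and 0, 0.290 and 0.453% for *Ogn*, and unthinned shares of at most 5.74%. *Igf1* was therefore found in nearly every member of the control and the Foxn11089/1089 library, and in most of the remaining cells there.

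The genes highest in members over the other *Pdgfra* cells included *Rspo3*, *Fgf18*, *Gsc* and *Epyc*. Of 7565 genes compared, 38 (0.502%) were at least 2-fold higher in members in each of the 3 libraries and 200 (2.64%) at least 2-fold lower, a description of cells that the rule chose. By any amount, 2761 (36.5%) were higher in each library and 2399 (31.7%) lower. Among the highest were *Rspo3* (ENSMUSG00000019880, GRCm38 chromosome 10, 29452416 to 29535867), whose product amplifies Wnt signals, and *Fgf18*, which encodes a fibroblast growth factor. *Rspo3* had 156, 205 and 203 CPM in members and 38.1, 82.1 and 79.7 CPM in the others, and *Fgf18* 27.4, 29.6 and 23.1 CPM against 5.17, 8.80 and 8.34 CPM. Members thus held both a secreted Wnt antagonist, by the rule, and a Wnt amplifier at the higher level among *Pdgfra* cells of every library. *Gsc* (ENSMUSG00000021095, GRCm38 chromosome 12, 104471209 to 104473330), a homeobox gene of craniofacial mesenchyme, had 79.7, 83.3 and 56.0 CPM against 15.2, 27.8 and 13.7 CPM, which is 5.23, 3.0 and 4.08 times the level of the others. *Dusp10*, for a phosphatase of MAP kinases, was 4.54, 2.67 and 2.35 times as high, and *Ntrk2*, for the receptor of brain-derived neurotrophic factor, 3.52, 2.35 and 2.46 times. Also among them were *Ogn* and *Epyc* (ENSMUSG00000019936, GRCm38 chromosome 10, 97644068 to 97682454), 2 small leucine-rich proteoglycans, and *Epyc* was 7.48, 4.83 and 5.35 times as high as in the others. Others of the 15 highest were *Mme*, for the peptidase neprilysin (3.05, 3.08 and 3.55 times), *Scara5*, for a ferritin receptor (3.01, 3.67 and 2.39), and the neuronal genes *Nefl* (2.91, 3.20 and 2.51) and *Ntm* (3.09, 2.43 and 2.41). Part of this contrast came from the cycling cells: against the *Pdgfra* cells that were not cycling, 15 genes were at least 2-fold higher in each library (14 of them among the 38) and 32 at least 2-fold lower (31 among the 200).

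**Figure D2:**
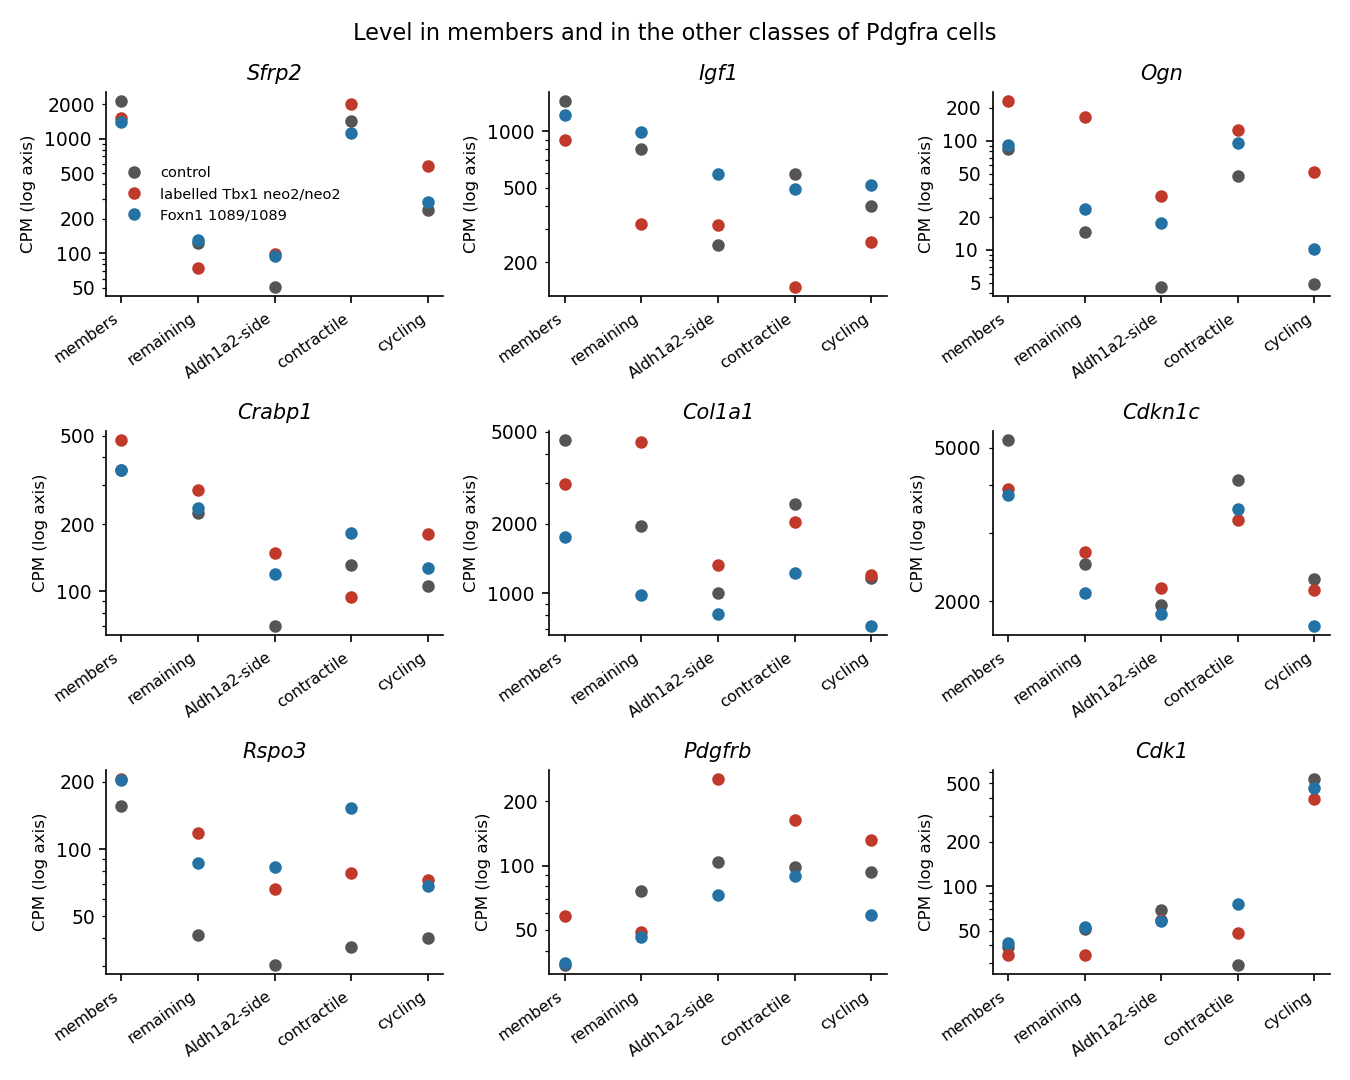
Level of 9 genes (CPM, log axis) in members and the 4 other classes of *Pdgfra* cells, with 1 point per library and no error bars. *Igf1* and *Crabp1* are highest in members in each library (1440 and 349 CPM in the control), while *Sfrp2*, which the rule used, is also high in contractile cells and *Cdk1* is high in cycling cells.

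Members were low in division genes that the rule did not use as well, more clearly for mitosis than for DNA synthesis, and the remaining *Pdgfra* cells shared this. All 18 genes of the G2 and M phases outside the rule were at least 2-fold lower in members than in the other *Pdgfra* cells of each library, and their sum was 168, 132 and 173 CPM in members against 5109, 4397 and 5158 CPM in cycling cells. *Cdk1*, the kinase that drives entry into mitosis, had 38.8, 33.9 and 41.3 CPM against 534, 395 and 469 CPM. In cells thinned to 5000 UMIs the median member had 0 UMIs of these genes and the median cycling cell 24, 15 and 21; 0 of 264, 0 of 549 and 1 of 712 members reached the median of the cycling cells, as did 0 of 281, 0 of 237 and 0 of 626 remaining cells. For 21 S-phase genes the median member had 3, 4 and 4 UMIs and the median cycling cell 7, 12 and 9, and 17.8%, 6.38% and 16.2% of members and 26.3%, 18.6% and 16.6% of remaining cells reached the cycling median. Of the 21, 20 were lower in members in each library and 6 of these by 2-fold or more, so S-phase transcripts were lower by less than those of mitosis. *Cdkn1c*, an imprinted inhibitor of cyclin-dependent kinases, had 5221, 3915 and 3763 CPM in members, 2.22, 1.58 and 1.95 times the level of the other *Pdgfra* cells. Because the rule removed cells with division genes, low levels of genes that vary with them are a consequence of the choice and not a finding about all Sfrp2-high cells: it set aside 30, 162 and 164 of those as cycling.

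The lists differed in how many of their genes were higher in members than in the other *Pdgfra* cells of each library, which held for 36.5% of all genes and by 2-fold for 0.502%. Of 8 retinoic acid genes compared, 7 were higher in members in each library, 3 of them by 2-fold. *Crabp2*, for a protein that carries retinoic acid to its receptor, had 115, 162 and 134 CPM against 35.9, 77.3 and 56.7 CPM, and *Rdh10*, for the retinol dehydrogenase of retinoic acid synthesis, 47.0, 73.0 and 47.5 CPM against 21.1, 29.7 and 26.0 CPM. Members thus held higher levels of genes for making and binding retinoic acid, while the rule itself had capped *Aldh1a2*, the last enzyme of the synthesis. Of 17 Wnt genes, 15 were higher in each library, 1 (*Rspo3*) by 2-fold, and of 18 guidance genes 14 were higher, none by 2-fold. Of 6 hedgehog genes, 5 were higher, among them the co-receptor gene *Cdon* by 2-fold (43.3, 76.1 and 44.5 CPM against 18.1, 34.5 and 21.0 CPM). Of 19 collagens, 13 were higher and 3 lower in each library, none by 2-fold; *Col1a1* (ENSMUSG00000001506, GRCm38 chromosome 11, 94936224 to 94953042) had 4594, 2957 and 1745 CPM against 1462, 2053 and 832 CPM. Shares above that of all genes were also found for Hox genes (6 of 7), collagen processing (12 of 17), imprinted genes (13 of 21) and elastic fibre genes (9 of 15), so a high share was not particular to the lists above. Of 19 genes that the study had listed as markers of a mesenchymal cluster of these same samples, 16 were higher in members in each library, 1 by 2-fold.

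Among the most variable genes of the members were those of matrix proteins and of a neuronal microtubule protein. After thinning to 5000 UMIs, *Stmn2*, for the microtubule regulator stathmin-2, was found in 53.8, 29.7 and 53.8% of members with a variance of 9.25, 6.78 and 8.02 times the mean, where chance sampling gives about 1. It was least often found in the labelled library, and a cell with 0 UMIs at this depth may still hold the transcript. *Mgp*, for an inhibitor of calcification, was found in 15.9, 35.7 and 11.8% of members with a variance of 4.37, 12.4 and 3.74 times the mean, most often in the labelled library (its *Tbx1* over all cells not lower than in the control). *Dcn* varied by 6.95, 11.0 and 10.6 and *Crabp1* by 4.40, 7.19 and 4.42 times the mean. The genes of the 2 chains of collagen I varied together, with a rank correlation of 0.61, 0.69 and 0.60 between *Col1a1* and *Col1a2* over thinned members, and *Col3a1* followed *Col1a1* at 0.55, 0.58 and 0.55. *Col3a1* and *Id3*, a target of BMP signals, went opposite ways at -0.21, -0.27 and -0.29. Members therefore spread along a range of collagen levels in each library.

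Transcripts of several other cell types were scarce in members, while those of red blood cells, contractile cells and cartilage and of *Stmn2* were not. The 6 contractile genes of the rule, which capped them without excluding them, were all found and summed to 448, 341 and 480 CPM in members and 2555, 4659 and 3242 CPM in contractile cells, and 16 smooth muscle genes outside the rule to 1603, 1518 and 1664 CPM and 2559, 3014 and 3036 CPM. Of 8 epithelial markers, 6, 7 and 7 had a UMI, with *Epcam* at 0 by the rule, and their sum was 49.0, 36.8 and 23.9 CPM, most of it *Krt18*; red blood cell barcodes held 95.7, 25.3 and 43.9 CPM of them. Of 6 endothelial markers 5, 6 and 5 were found (36.0, 36.4 and 27.8 CPM, most abundant *Egfl7*, with *Cldn5* at 0 in the control and the Foxn11089/1089 library), and of 6 hematopoietic markers 5 in each library (9.40, 7.44 and 9.09 CPM, most abundant *Coro1a*, with *Ptprc* at 0 by the rule). Hemoglobin and other red blood cell genes, 5 of 5 found, summed to 172, 259 and 1124 CPM, high in the Foxn11089/1089 library. The sums were close to these in the other *Pdgfra* cells (139, 192 and 1108 CPM), epithelial cells (123, 177 and 1013 CPM) and hematopoietic cells (140, 182 and 970 CPM). Cartilage markers, 4, 5 and 5 of 6 found, summed to 148, 313 and 164 CPM against 46.4, 370 and 77.5 CPM in the other *Pdgfra* cells, with *Col9a1* the most abundant and *Matn1* at 0 in the control and the labelled library. Markers of glia and neurons, 4, 7 and 5 of 7 found, summed to 871, 319 and 635 CPM, nearly all *Stmn2* (866, 301 and 625 CPM), and to more in epithelial cells (1244, 637 and 1048 CPM), while the neural crest and glial gene *Sox10* had 0.409, 0.862 and 0.219 CPM. Of 3 parathyroid markers, 2, 2 and 3 were found and summed to 6.54, 0.940 and 77.1 CPM, most of it *Pth* in the control and the Foxn11089/1089 library; red blood cell barcodes held 6.89, 0 and 105 CPM. The parathyroid transcripts of the Foxn11089/1089 library were thus at least as abundant in red blood cell barcodes as in members. Of 6 skeletal muscle markers 2, 4 and 5 were found (9.40, 18.4 and 15.9 CPM, most abundant *Des*, with *Pax7* at 0 in each library), of 3 thymocyte markers 3, 3 and 2 (1.63, 3.45 and 0.986 CPM) and of 4 thyroid markers 1, 3 and 2 (0.409, 1.41 and 0.219 CPM, with *Pax8* at 0 in each). Red blood cell barcodes held 37.1, 8.52 and 7.29 CPM of the hematopoietic, 2.30, 0.433 and 0.146 CPM of the thymocyte and 0.287, 3.90 and 2.31 CPM of the thyroid markers, and 3.16, 3.18 and 2.82 CPM of the endothelial and 0, 1.16 and 0.659 CPM of the skeletal muscle markers. Transcripts made in members and RNA from outside the cells cannot be told apart here for the red blood cell, epithelial, hematopoietic and thyroid markers. The same holds for the parathyroid markers outside the labelled library and for the thymocyte markers of the control. Red blood cell barcodes held 0.287, 5.49 and 3.99 CPM of the cartilage markers and 16.9, 4.91 and 18.7 CPM of those of glia and neurons, less than members did. Doublets were marked among 0, 11 and 10 members.

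In members of the labelled library, single genes such as *Otor* and *Tbx5* were higher than in the control, while 8 of 16 immediate early and heat shock genes, *Notch2* and *Igf1* were lower. Over all its kept cells this library does not have less *Tbx1* than the control. It had 4.89 against 0.801 CPM in epithelial cells and 3.18 against 3.13 CPM in the other *Pdgfra* cells. In members the log2 ratio of *Tbx1* was -0.39 (-0.96 to 0.21), and -0.73 less the median over all genes. With 1 library per genotype and a label that these counts could not check, no direction below can be assigned to the mutation. Values in brackets after CPM are log2 ratios with their intervals, less their median over all genes tested, which was 0.34 in this comparison and 0.20 for the Foxn11089/1089 library, since most genes lay a little higher than in the control. Of 9571 genes with at least 100 UMIs in members of the 2 libraries, 1266 (13.2%) lay 2-fold or more apart, 579 higher (6.05%) and 687 lower (7.18%); without the centring 1533 did, 1289 of them higher. The whole interval lay past 2-fold for 459. A ratio called thinned is that of cells thinned to 5000 UMIs and then chosen, so both depth and membership changed. A ratio called drawn down is that of the chosen members thinned and not chosen again. For named genes both are given below 100 UMIs too, where they rest on few counts.

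*Otor*, *Gas6*, *Cxcl13* and *Agtr2* were among the genes with the highest ratios. *Otor* (ENSMUSG00000027416, GRCm38 chromosome 2, 143078473 to 143081713), for a secreted protein known from cartilage and cochlea, had 0.409, 37.0 and 5.58 CPM (6.16, 3.68 to 11.47, and 5.46 with at least 10 *Sfrp2* UMIs), on 1 UMI in the control. It was nearly absent from control members and present in the labelled library. *Gas6*, for the ligand of the TAM receptor kinases, had 2.04, 29.9 and 2.63 CPM (3.53, 2.30 to 5.16, and 2.46 with at least 3 *Sfrp2* UMIs). *Cxcl13*, for a chemokine that draws B cells, had 13.9, 96.4 and 16.8 CPM (2.46, 1.97 to 2.99, and 5.45 with at least 10 *Sfrp2* UMIs), against a ratio of 0.16 in the other *Pdgfra* cells, and its ratio was 0.94 thinned, short of 2-fold, and 2.26 drawn down. The *Cxcl13* difference was thus seen in members and not in the other *Pdgfra* cells, a contrast that was not tested. The receptor gene *Agtr2*, for the second angiotensin receptor, had 19.6, 155 and 28.6 CPM (2.64, 2.23 to 3.09, thinned 1.80), and less the ratio in epithelial cells it was -1.27. *Mgp* had 74.8, 455 and 44.3 CPM (2.27, 2.06 to 2.49, 3.26 in the other *Pdgfra* cells, 1.38 with at least 10 *Sfrp2* UMIs), and the marker gene *Ogn* 84.6, 230 and 92.1 CPM (1.11, 0.90 to 1.32), which was 0.93 thinned, short of 2-fold, and 1.33 drawn down. Among lists of matrix genes, 2 of 23 collagens rose and none fell, and 2 of 20 genes of collagen processing fell and none rose. Among 9 basement membrane genes 1 fell and none rose. These counts lie near the shares over all genes given above and are too small to tell the 3 lists apart. Of 26 other matrix genes 6 rose and 1 fell, with a median of 0.52 against 0.00 over all genes, a median above 0 under each scaling tried. Of 4 cartilage markers tested 2 rose, with a median of 1.18 (4.20 in the other *Pdgfra* cells, and 0.47 thinned, where 2 were tested). The 2 that rose, *Col2a1* and *1500015O10Rik*, were -0.09 and -0.92 thinned but 2.71 and 2.0 drawn down. Those thinned values cannot give a median of 0.47, so at least 1 of the 2 genes had too few UMIs for testing there. In the remaining *Pdgfra* cells the sum of the cartilage markers was 61.6, 967 and 91.9 CPM, above that in members of the labelled library. Of 16 elastic fibre genes 5 rose and 1 fell (median 0.05), among them *Eln*, elastin itself, at 80.5, 240 and 66.9 CPM (1.24, 1.03 to 1.46, chosen after its values were seen).

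*Tbx5*, *Shox2*, *Zfhx4* and *Tbx3os1* were also among the highest, while a list of mesenchymal transcription factor genes went both ways. *Tbx5* (ENSMUSG00000018263, GRCm38 chromosome 5, 119832668 to 119885219), a T-box gene of heart, limb and lung fields, had 3.68, 38.6 and 2.08 CPM (3.06, 2.12 to 4.19, 6.45 in the other *Pdgfra* cells). *Shox2* had 4.90, 37.9 and 17.6 CPM (2.61, 1.79 to 3.57, 4.16 thinned and 4.74 with at least 10 *Sfrp2* UMIs), *Zfhx4* 24.1, 169 and 26.5 CPM (2.47, 2.10 to 2.87) and the antisense transcript *Tbx3os1* 6.95, 53.4 and 11.3 CPM (2.61, 1.92 to 3.39). All 4 were high in the labelled library over the control, but less the ratio in epithelial cells *Shox2* was 0.56, *Zfhx4* -0.28 and *Tbx3os1* -0.79, and *Shox2* was higher in the Foxn11089/1089 library too (1.65, and 3.21 thinned). The shares over all genes, against which the counts of lists here stand, were 6.05% higher and 7.18% lower by 2-fold. Of 14 Hox genes 7 rose and none fell, with a median of 1.18. In thinned cells, where 4 Hox genes were tested, the median was -0.07, and drawn down, with 8 tested, 0.89. A gene low in the control can reach 100 UMIs through the deeper library alone, in every list counted in this comparison. Of the 7, *Hoxc6* and *Hoxd8*, chosen after their values were seen, had 0 UMIs in the control. They had 272 and 116 UMIs in the labelled library. *Hoxa5*, also among the 7 and chosen after its values were seen, had 13.9, 73.8 and 19.1 CPM (2.07, 1.58 to 2.61). *Hoxa2* had 64.2, 45.3 and 64.2 CPM (-0.84, -1.10 to -0.58) and *Hoxa3* 78.1, 67.3 and 105 CPM (-0.55, -0.78 to -0.32). Among 50 mesenchymal transcription factor genes 7 rose and 6 fell, with a median of 0.18. *Tbx15*, counted among those that rose and also chosen after its values were seen, had 0 UMIs in control members. *Nr2f2*, an orphan nuclear receptor gene chosen in the same way, had 360, 109 and 169 CPM (-2.06, -2.18 to -1.93). Of 29 Wnt genes 7 rose and 2 fell around a median of 0.04. Among them *Ctnnb1*, for beta-catenin, had 156, 418 and 284 CPM (1.09, 0.94 to 1.24, and -0.14 less the ratio in epithelial cells).

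*Jund*, *Klf2*, *Spry2*, *Notch2* and *Igf1* were among the genes that were lower. Of 16 immediate early and heat shock genes 8 fell, none rose and 3 lay above 0, where 7.18% of all genes fell and 6.05% rose. Their median was -0.96 (-0.62 without centring, -0.75 thinned, -0.90 drawn down, -0.45 in the other *Pdgfra* cells). *Jund* had 2016, 925 and 1354 CPM (-1.46, -1.51 to -1.41) and *Jun* 1280, 760 and 1211 CPM (-1.09, -1.15 to -1.03, -0.75 without centring), which encode parts of the AP-1 transcription factor. *Klf2*, a transcription factor gene, had 387, 104 and 228 CPM (-2.23, -2.35 to -2.11, and -1.64 thinned) and *Spry2*, for an antagonist of FGF signals, 260, 61.7 and 99.1 CPM (-2.41, -2.57 to -2.26). The receptor gene *Notch2* had 430, 147 and 132 CPM (-1.89). Less the ratio in epithelial cells, *Notch2* was 0.03, *Spry2* -0.31, *Jun* -0.53 and *Jund* -0.67, while *Igf1* was -1.15 and *Klf2* -1.99. The lower *Notch2* was thus shared with epithelial cells. Growth factor genes as a list were not lower throughout: of 16, 4 rose and 3 fell, with a median of -0.02 (0.32 without centring, -0.43 thinned, -0.53 drawn down). *Igf1* had 1440, 901 and 1216 CPM (-1.01, -1.07 to -0.96), at the edge of 2-fold, since it was -0.68 without centring, -0.96 with at least 10 *Sfrp2* UMIs and -0.99 with 3 per 10000, -0.99 without doublets, -0.95 as a mean over cells and -0.84 drawn down. The members of the labelled library were thus lower in *Igf1* in each of these forms, but not always by 2-fold. Transcripts of *Stmn2* fell to 301 CPM from 866 (-1.86, -1.94 to -1.78, -1.01 thinned and -1.76 drawn down). The other marker of glia and neurons tested, *Elavl4*, for a neuronal RNA-binding protein, went the other way, with 2.45, 7.76 and 6.68 CPM (1.33, 0.15 to 2.81, 3.0 thinned and 2.02 with at least 10 *Sfrp2* UMIs). Many of these differences were not special to members: of 26 named genes at least 2-fold higher, 20 of 26 tested were so in the other *Pdgfra* cells and 10 of 20 in epithelial cells, and of 27 lower, 21 of 27 and 18 of 25. Over all genes, 45.3% of those raised in members and 69.5% of those lowered were called the same way in the other *Pdgfra* cells, which is 46.3% and 69.9% of the lists of those cells, and 26.5% and 64.5% in epithelial cells (35.6% and 68.3% of their lists). Within single classes of *Pdgfra* cells the shares of raised and lowered genes lay closer. They were 67.3% and 73.1% in remaining cells, 51.0% and 56.3% on the *Aldh1a2* side, and 52.8% and 63.3% in cycling cells. Lowered genes had the higher share in each of these classes, but all classes come from the same libraries and the difference was not tested.

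In members of the Foxn11089/1089 library, fewer genes lay apart from the control. *Col1a1* and *Epyc* were lower, while *Tmsb4x*, *Meg3* and transcripts of the parathyroid were higher. These rises were not particular to members: less the ratio in epithelial cells *Tmsb4x* was 0.09, *Meg3* -1.58 and *Pth* 0.82. Parathyroid markers summed to 77.1 CPM in members, 65.2 CPM in hematopoietic cells and 105 CPM in red blood cell barcodes of this library. Of 8490 genes tested, 542 (6.38%) were 2-fold or more apart, 220 higher (2.59%) and 322 lower (3.79%); without centring 629 were, 438 of them higher, and the whole interval lay past 2-fold for 194. Both comparisons use the same control members, so a value peculiar to that library enters both. *Col1a1* had 4594, 2957 and 1745 CPM (-1.59, -1.63 to -1.56, -1.05 in the other *Pdgfra* cells), while *Col1a2*, for the other chain of collagen I, had 1556, 2445 and 1536 CPM (-0.21, -0.27 to -0.16). The 2 collagen I genes thus differed unequally. Of 23 collagens 2 fell and none rose, and their median of -0.22 became -0.02 without centring and -0.01 thinned. The proteoglycan gene *Epyc* had 41.7, 35.8 and 12.3 CPM (-1.96, -2.36 to -1.56, -1.52 in the other *Pdgfra* cells), and *Clu*, for a secreted chaperone, 46.2, 46.8 and 16.8 CPM (-1.66, -2.02 to -1.29), so 2 genes that set members apart were lower here. *Fstl1*, for a secreted follistatin-like protein, had 1006, 654 and 522 CPM (-1.14, -1.21 to -1.07, -0.95 without centring and -0.98 thinned, short of 2-fold, and -1.14 drawn down). Of the marker genes not in the rule, none reached 2-fold: *Igf1* -0.44 (-0.49 to -0.38), *Ogn* -0.07 (-0.29 to 0.15), *Crabp1* -0.20 (-0.30 to -0.08) and *Dcn* -0.33 (-0.39 to -0.26). The members of this library therefore had marker levels within 2-fold of the control.

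Most of the named genes that were higher in the Foxn11089/1089 library were also higher in other classes of cells, which over all genes held for fewer. *Tmsb4x*, for an actin-binding peptide, had 1677, 4070 and 6173 CPM (1.68, 1.64 to 1.73). *Meg3* (ENSMUSG00000021268, GRCm38 chromosome 12, 109541001 to 109571726), an imprinted long noncoding RNA, had 1259, 5649 and 3751 CPM (1.38, 1.33 to 1.43, 2.96 in epithelial cells), and it was high in the labelled library as well (1.83, 1.78 to 1.88). *Wdfy1* had 2.86, 9.17 and 36.5 CPM (3.48, 2.42 to 4.80, and 2.29 thinned and 2.81 as a mean over cells), *Cadm1*, for a cell adhesion protein, 9.40, 24.8 and 38.9 CPM (1.85, 1.24 to 2.53) and *Cdo1*, for cysteine dioxygenase, 22.5, 111 and 75.2 CPM (1.55, 1.15 to 1.97). *Id1*, a target of BMP signals, rose to 429 CPM from 163 (1.20, 1.05 to 1.35), whereas *Id3* had 1313, 688 and 838 CPM (-0.84, -0.90 to -0.78). The parathyroid hormone gene *Pth* had 4.90, 0.0784 and 57.9 CPM (3.37, 2.55 to 4.33), and its ratio in hematopoietic cells was 3.74. Lower here and in the other *Pdgfra*, epithelial and hematopoietic cells were *Notch2* (430, 147 and 132 CPM, with -1.90, -2.02 to -1.78), *Jag1*, for a Notch ligand (173, 55.7 and 40.1 CPM, with -2.31, -2.51 to -2.10), and *Foxo3*, a forkhead gene (64.6, 23.9 and 15.7 CPM, with -2.24, -2.58 to -1.90). *Notch2*, *Jag1* and *Foxo3* were thus high in the control members and low in those of the other 2 libraries, a pattern that 1 library per genotype cannot assign to a genotype. Of 18 named genes at least 2-fold higher, 17 of 18 were so in the other *Pdgfra* cells and 15 of 17 in epithelial cells; of 24 lower, 23 of 24 and 19 of 22, with 1 (*Epyc*) past 2-fold the other way. Over all genes, 38.0% of those raised in members and 74.2% of those lowered were called the same way in the other *Pdgfra* cells (45.6% and 73.3% of the lists of those cells), and of those raised 34.9% were in epithelial and 36.2% in hematopoietic cells.

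**Figure D3:**
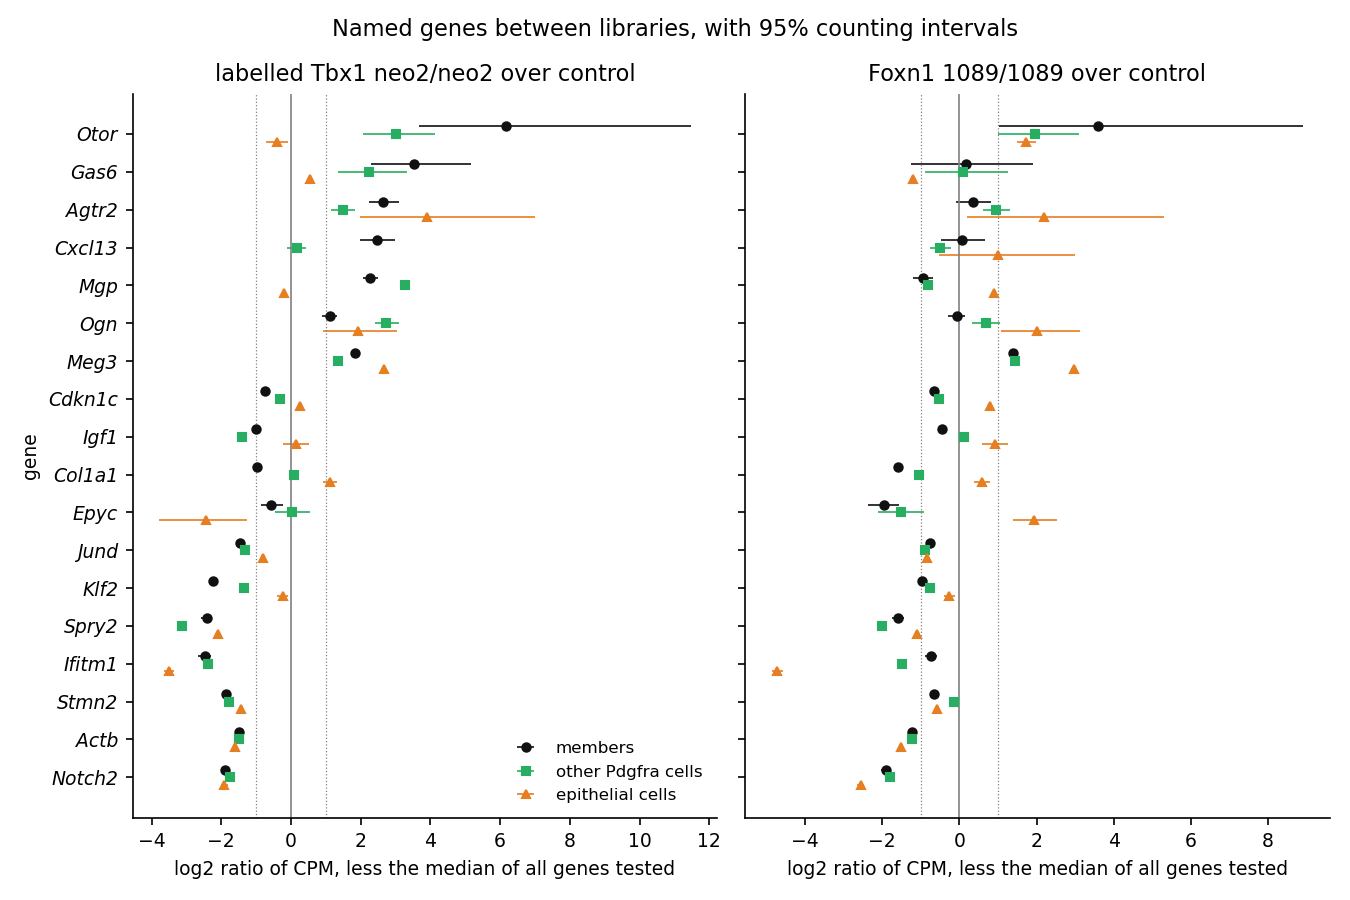
Centred log2 ratios to the control (horizontal axis) of 18 genes in members, other *Pdgfra* cells and epithelial cells, for the library labelled Tbx1 neo2/neo2 (*Tbx1* not lower over all its cells, left) and the Foxn11089/1089 library (right); bars are 95% counting intervals and dotted lines mark 2-fold. *Cxcl13* stands at 2.46 in members and 0.16 in other *Pdgfra* cells on the left, and *Epyc* at -1.96 in members and 1.93 in epithelial cells on the right.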

How the data were processed

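The authors deposited a matrix of UMI counts per gene and barcode for each of 3 libraries of 3′ single-cell RNA from fetal thymus (Cell Ranger 3.0.0, mm10; Seurat is named for later steps). From these counts the members were chosen by the rule above, and their UMIs were summed per gene and library and divided by the sum of all their UMIs. Depth was a median of 12470, 19774 and 14027 UMIs per barcode. Ratios were centred on the median of genes with at least 100 UMIs in the 2 libraries, and 2-fold or more is called, with no test. Named genes are the markers, the 10 highest and 10 lowest ratios per comparison among genes with at least 300 UMIs (mitochondrial, hemoglobin, ribosomal, Y-linked and rule genes and *Xist* left out), the 4 most abundant of each of 38 lists, 15 genes highest and 10 lowest in members against other *Pdgfra* cells, the 15 most variable, and *Tbx1* and *Foxn1*. Members and lists were chosen with earlier results of these data known. Alternatives were other *Sfrp2* minimums, thinning to 5000 UMIs, other gene minimums, scalings and folds, and leaving out doublets. Software was Python 3.11.15, scanpy 1.11.5 (Scrublet), anndata 0.12.19, matplotlib 3.10.9, pandas 2.3.3, scipy 1.17.1 and numpy 2.4.6. Coordinates are from GENCODE release 21. The measures were tested on simulated data.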

Additional observations from a re-analysis of the deposited data

Results flagged for a closer look

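*Epyc* differed in opposite ways in 2 kinds of cells: its log2 ratio of the Foxn11089/1089 library to the control was -1.96 (-2.36 to -1.56) in members and 1.93 (1.38 to 2.53) in epithelial cells. The intervals cover counting error, and the difference was not tested.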

How the results depend on the processing

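A value counts as moved outside its counting interval, and a count when it is over 1.5 times off. The share of members among *Pdgfra* cells moved with the *Sfrp2* minimum. It was 34.5%, 43.1% and 35.9% with 3 UMIs, 19.6%, 31.6% and 19.2% with 10, and 34.3% and 32.9% in the control and the Foxn11089/1089 library with 3 per 10000 UMIs. In cells thinned to 5000 UMIs and then chosen by the rule, with 163, 316 and 398 members, it was 23.6%, 30.6% and 21.1%. Relative to the control, the share was 1.61 times as high in the labelled library with 10 UMIs, 1.06 times with 3 per 10000 and 1.30 times thinned, and that of the Foxn11089/1089 library was 0.896 thinned. Genes past 2-fold numbered 401 and 260 in the thinned cells, where members changed and fewer genes were tested, 2008 and 1041 with a gene minimum of 30 UMIs and 3390 and 2055 at 1.5-fold. The causes were not tested beyond these constructions. Leaving aside the alternatives added later, 2 single named genes reversed, both in the first comparison in cells thinned and then chosen: *1500015O10Rik* to -0.92 and *Col2a1* to -0.09. These 2 genes did not both have enough UMIs for testing in those cells, so the reversals rest on few counts. Another 489 values of single genes moved and 2518 did not.

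Further alternatives were added later, with the results in view. With the chosen members thinned and not chosen again, 689 and 373 genes lay past 2-fold. Of the named genes, 51 of 53 and 40 of 42 stayed past it the same way, and none turned sign: *Col2a1* was 2.71 and *1500015O10Rik* 2.0. These counts of named genes take in some with too few UMIs for testing there. Among the named genes tested, 50 and 37 lay past 2-fold. With the log2 ratio in epithelial cells subtracted, 399 genes and 34 named genes lay past 2-fold in the first comparison, and 615 and 48 for the Foxn11089/1089 library. Of the 52 and 42 named genes past 2-fold before and with a ratio in both, 15 and 6 stayed so the same way, and 16 and 18 turned sign. Some of these had too few UMIs for testing in epithelial cells. In the first comparison 20 of 26 higher and 25 of 27 lower genes were tested there, and 17 of 18 and 22 of 24 in the other. Against the other *Pdgfra* cells, 41 genes were higher and 207 lower with a minimum of 3 *Sfrp2* UMIs, 29 and 186 with 10, 41 and 197 without doublets, and 15 and 32 when cycling cells were left out. Of all alternatives for answers to a comparison, 59 planned and 11 added ones did not move and 20 and 5 did.

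No paired analysis was possible because the libraries come from different embryos with 1 library per genotype. Differences in age within E13 to 13.5, sex, dissection or handling cannot be told apart from genotype. Members of the control had the fewest cells and UMIs, which limits its rare transcripts: a gene with 1 UMI there has a wide interval. An *Sfrp2* minimum in UMIs takes in more cells where depth is higher.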
